A study of Mus musculus with 30 samples.

Results

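The genes described here encode the subunits of oxidative phosphorylation: complexes I to IV of the respiratory chain and ATP synthase (complex V). They were chosen among protein-coding genes by a symbol rule that takes no measured value, but was set with earlier results of these data known. It covers the Nduf families a, b, c, s and v, Sdha to Sdhd, the Uqcr genes, Cox4 to Cox8 with their isoforms, the Atp5 genes, and mt-Nd, mt-Co, mt-Atp and mt-Cytb. The rule gave 96 of the 50686 genes counted. Of these, 83 are nuclear (36 of complex I, 4 of complex II, 8 of complex III, 18 of complex IV and 17 of complex V), and 13 are mRNAs of the mitochondrial genome (7 of complex I, 1 of complex III, 3 of complex IV and 2 of complex V). Ndufa4, now known as a subunit of complex IV, is counted with complex I by its symbol. A filter on low counts kept 80 nuclear members and all 13 mitochondrial mRNAs. The nuclear members it removed were Cox7b2 and Cox8c, with 0 counts in the 30 libraries together, and Cox8b, with 2.

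RNA was sequenced from osteoclast cultures. Macrophages derived from the bone marrow of C57BL/6J mice, wild type (WT) or lacking the telomerase RNA gene (Terc-/-, here KO), were cultured with 100 ng/ml RANKL and 25 ng/ml M-CSF. The series asks whether gene expression in osteoclasts differs with the age of the mice and with Terc. WT cultures were taken after 2 days, from mice of 6 or 20 months, or once large multinucleated cells had formed, from mice of 1, 6 or 20 months, and KO cultures at the multinucleated stage from mice of 1 or 6 months. Some multinucleated cultures carry an extra tag in their titles that the labels do not explain: a prefix 519 on 3 KO cultures of 1 month and 3 of 6 months, and a tag beginning with D1 on 3 WT cultures of 1 month. These were kept as groups of their own, which gave 10 groups of 3 libraries. Medium (α-MEM with 10% FBS) and strain were the same in all groups.

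Complex I takes electrons from NADH and complex II, which is also an enzyme of the citric acid (TCA) cycle, takes them from succinate. Complex III passes them from coenzyme Q to cytochrome c, complex IV passes them to oxygen, and ATP synthase uses the proton gradient that results. Most subunits are encoded in the nucleus and imported, while the mitochondrial genome supplies core subunits of every complex except complex II. Osteoclasts are cells rich in mitochondria, and the coactivator PGC-1β, encoded by Ppargc1b, is known to support mitochondrial gene expression during their formation.

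Libraries held 4269798 to 25147975 counts, with the 6 libraries of set 519 at 4269798 to 12987993. Terc itself had 5 counts in the 18 WT libraries together and 0 in the 12 KO libraries, too few to check single labels. The 3 libraries of set D1 carried Xist at 848 to 937 CPM (counts per 1000000 counts) and no counts of Y-linked genes, whereas Xist did not exceed 0.431 CPM in any other group, so a comparison with set D1 is also one between sexes. Summed over 10 markers, osteoclast genes were at 673 to 736 CPM in unprefixed 1-month KO cultures, 2363 to 2491 in 1-month WT, 2471 to 2768 in unprefixed 6-month KO, 3656 to 4823 over both 2-day groups, 7037 to 8251 in 1-month KO of set 519, 20749 to 24822 in 6- and 20-month multinucleated WT, 26527 to 27729 in 6-month KO of set 519 and 44101 to 46521 in set D1. Summed over 8 markers, macrophage genes were highest in unprefixed 1-month KO (44636 to 47631 CPM) and lowest in the 2-day cultures (8716 to 9679). No marker of these 2 lists was at 0. Stromal markers (7 genes) summed to 467 to 3792 CPM, and neutrophil, erythroid, B and T cell and muscle lists stayed at or below 18.7 CPM. Their part in the results below was not tested, and in these bulk samples fewer cells of a type and less RNA per cell cannot be told apart.

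Nuclear members were among the more abundant transcripts. Their median level was 87.9 CPM, against 17.3 CPM for all genes tested. Per length, the nuclear members of complex II (median 105 RPKM, that is CPM per kilobase of exon), III (103) and IV (101) stood above those of complex V (64.6) and I (43.4). The length is that of all annotated exons of a gene, and the order depends on it. By CPM the medians were 175 for complex II, 137 for V, 119.6 for III, 115 for IV and 54.0 for I. Atp5a1 and Atp5b, the catalytic core of ATP synthase, reached 339.9 and 308 RPKM. The highest of complex IV were Cox6b1 at 289.8 RPKM and Cox4i1 at 281 RPKM. Sdha, the flavoprotein of complex II (ENSMUSG00000021577; chr13:74322254-74350280, minus strand, GRCm38), stood at 136 RPKM and Uqcrc2, a core protein of complex III (ENSMUSG00000030884; chr7:120635176-120659524, plus strand), at 83 RPKM. Cox6a1 (ENSMUSG00000041697; chr5:115345642-115348981, minus strand) and Cox8a (ENSMUSG00000035885; chr19:7215158-7217616, minus strand), small subunits of complex IV, were at 248 and 211 RPKM.

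Tissue isoforms of complex IV split sharply per length. Cox4i1, the common isoform, was at 281 RPKM and Cox4i2, known from lung and hypoxia, at 0.638 RPKM. Beside Cox6a1, its heart and muscle form Cox6a2 was at 0.590 RPKM, while Cox6b1 was at 289.8 RPKM and the testis form Cox6b2 at 0.495 RPKM. In the Cox7a family, Cox7a2l, a factor of respiratory supercomplexes, was at 178 RPKM, Cox7a2 at 101 RPKM and the heart and muscle form Cox7a1 at 5.30 RPKM. For the c-ring of ATP synthase, where 3 genes encode the same mature protein, Atp5g3 was at 97.9 RPKM, Atp5g2 at 51.6 RPKM and Atp5g1 at 25.9 RPKM. The order of the last 2 rests on exon lengths of 1675 and 4912 bases, since by CPM Atp5g1 (127) was above Atp5g2 (86.4). The lowest complex I member was Ndufb2, at 0.592 RPKM over an exon length of 5628 bases.

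The 13 mitochondrial mRNAs together took between 1.76% and 6.07% of a library's counts, and the 83 nuclear genes between 0.776% and 1.33%. The mitochondrial share was lowest in unprefixed KO cultures (1.80% ± 0.0389 at 6 months and 1.86% ± 0.0706 at 1 month; SD, n = 3) and in 1-month WT (1.97% ± 0.0703). It was 2.49% ± 0.0954 and 2.60% ± 0.0333 in 2-day WT cultures of 6 and 20 months, 4.05% ± 0.126 and 3.70% ± 0.108 in the multinucleated WT cultures of those ages, and 5.83% ± 0.207 in set D1. In set 519 it was 2.5% ± 0.158 at 1 month and 2.98% ± 0.0133 at 6 months. The nuclear share had a narrower range of means, from 0.845% in unprefixed 1-month KO and 0.860% in 1-month KO of set 519 to 1.32% in 6-month multinucleated WT. The ratio of the mitochondrial to the nuclear share ran from 1.84 in 1-month WT to 5.11 in set D1. The 6 mRNAs with low counts described next held at most 0.0145% of a library. The mitochondrial share and this ratio are thus in effect those of the other 7.

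**Figure D1:**
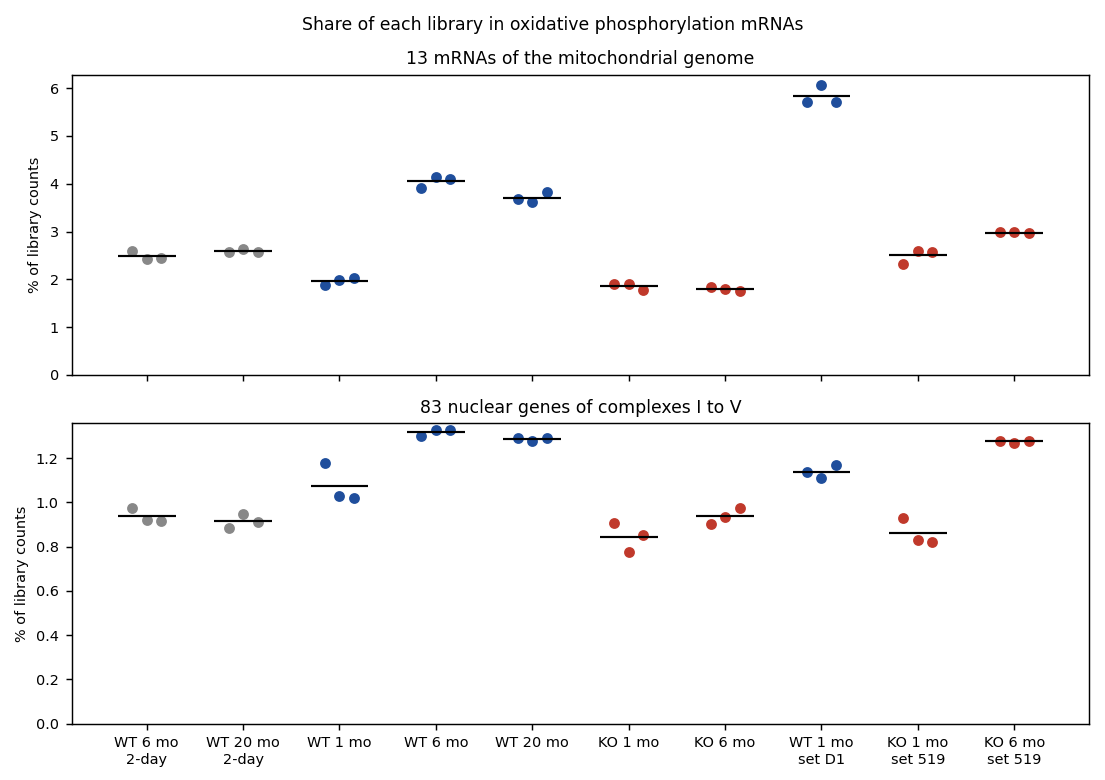
Percent of each library's counts in the 13 mitochondrial mRNAs and in the 83 nuclear members (vertical axes), by group (horizontal axis); points are libraries, short lines group means, grey WT 2-day cultures, blue WT multinucleated and red KO multinucleated. The mitochondrial share spans 1.80% to 5.83% over the group means, and the nuclear share 0.845% to 1.32%.

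Within the mitochondrial genome, 7 mRNAs carried nearly all counts and 6 had very few, a division made after their levels were seen. mt-Co1, the catalytic subunit of complex IV, was at 8923 RPKM over the 30 libraries, mt-Nd1 at 3795 RPKM and mt-Cytb, the mitochondrial subunit of complex III (ENSMUSG00000064370; MT:14145-15288, plus strand), at 3658 RPKM, and the lowest of the 7, mt-Nd4, was at 1191 RPKM. The other 6 lay between 9.29 and 22.4 RPKM: mt-Co2 (22.4), mt-Co3 (20.5), mt-Atp6 (16.4), mt-Atp8 (16.1), mt-Nd3 (11.5) and mt-Nd4l (9.29). For 5 of these 6, between 97.6% and 99.9% of all stretches of 100 bases also occur in an annotated transcript of another chromosome, while for mt-Nd1, mt-Nd5, mt-Nd6 and mt-Cytb no such stretch does. The values in between were 60.8% for mt-Nd4, 30.8% for mt-Co1 and 3.19% for mt-Nd2. The exception is mt-Atp8, at 0%, of whose 204 bases 43 also belong to mt-Atp6.

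The transcripts in question lie side by side on chromosome 1 at chr1:24611535-24616197 (GRCm38), a block of 4663 bases with 7 annotated pseudogenes, each 98.8% to 100% identical to its mitochondrial counterpart over the aligned bases. They are copies of mt-Co1, mt-Co2, mt-Atp6, mt-Co3, mt-Nd3, mt-Nd4l and mt-Nd4, and between those of mt-Atp6 and mt-Co2 lie 233 bases with no annotated copy. Their counts over all libraries were of the same order as those of the low mRNAs: 11850 for the copy of mt-Atp6, whose own count was 5316, and 9333 for the copy of mt-Co2, with 7268. The first 60 bases of mt-Nd3 (MT:9459-9518, plus strand) and of its copy Gm28438 (chr1:24613060-24613119, minus strand), from the annotated transcripts and shown 5′ to 3′, make the likeness plain. The capital marks the base that differs.
mt-Nd3: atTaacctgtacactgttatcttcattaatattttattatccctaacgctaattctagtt
Gm28438: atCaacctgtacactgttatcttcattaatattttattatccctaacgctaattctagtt
The part of this likeness in the low counts was not tested. Levels of these 6 mRNAs are therefore given as uncertain throughout, and the mitochondrial genome is described mainly by the other 7. Those 7 are not all free of the likeness: mt-Nd4 shares 60.8% of its stretches and mt-Co1 30.8%. The levels of mt-Nd4 and mt-Co1 carry this uncertainty too.

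**Figure D2:**
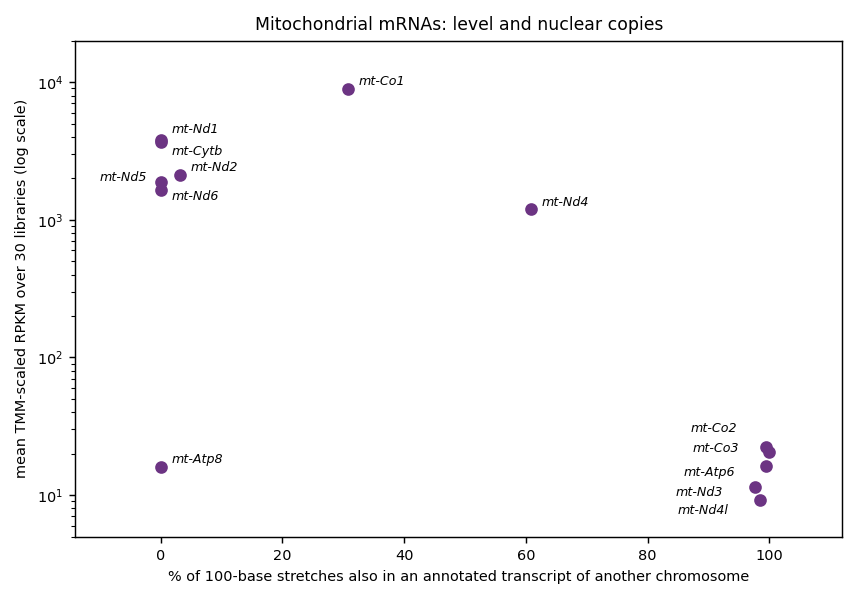
Each point is 1 of the 13 mitochondrial mRNAs: percent of its 100-base stretches that also occur in an annotated transcript of another chromosome (horizontal axis) against its mean level in RPKM (vertical axis, log scale). The 5 mRNAs above 97% lie between 9.29 and 22.4 RPKM, and mt-Atp8 lies at 0% and 16.1 RPKM.

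Shared sequence was also counted for the nuclear members. Of the 83, 24 share any exon base with another gene, none shares as much as 50%, and the highest is Atp5o, with 44% of its exon bases shared with 3 genes, most of them with Gm15976. Ndufb6 shares 39% with Smim27, Ndufa13 30% with Tssk6 and Uqcrc2 19.7% with Pdzd9. Atp5l alone has over 50% of its 100-base stretches in other genes (69.0%), so its counts are uncertain. Counting used no strand option, so reads of a member and of an overlapping gene on the other strand cannot be told apart. This applies also to mt-Nd6, which lies on the strand opposite to the other 12 mRNAs.

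With the formation of multinucleated cells, the subunits rose together. In 6-month WT, 65 of the 80 nuclear members rose from day 2 to the multinucleated stage and 0 fell, where 23.4% of all genes tested rose and 27.4% fell. In 20-month WT, 70 rose and 0 fell, against 25.4% and 26.9% of all genes, which are on the whole less abundant than the members. At an unadjusted p under 0.05 and with DESeq2 the number that fell was also 0 at both ages. The median difference of nuclear members was 0.49 and 0.53 on the log2 scale, with all genes tested at -0.01 and 0.00. These 2 comparisons share no library, and 63 members rose in both (96.9% of the 65 and 90% of the 70). With 65 and 70 of 80 called, most members would be in both in any case. The share of all genes that rose in both was not counted. Of the mitochondrial mRNAs, 12 of 13 rose at 6 months and 11 at 20 months, with medians of 0.78 and 0.60. Markers moved with stage too: all 10 osteoclast markers rose at both ages, and their sum went from 3656 to 4287 CPM on day 2 to 20749 to 22397 CPM in multinucleated cultures of 6 months. The stromal sum went from 3506 to 3792 CPM to 1275 to 1648 CPM there (5 of 7 fell and 1 rose), and from 2955 to 3133 CPM to 2523 to 2925 CPM at 20 months. Of the 8 macrophage markers, 5 rose and 2 fell at 6 months and 3 rose and 4 fell at 20 months.

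All 4 subunits of complex II and all 8 nuclear subunits of complex III rose at both ages. Sdha was at 402, 395 and 412 CPM in the 2-day libraries of 6 months and at 751, 752 and 754 CPM in the multinucleated ones, without overlap. At 20 months it was at 403, 398 and 411 CPM on day 2 and at 763, 747 and 768 CPM in multinucleated cultures. These are rises of 0.90 ± 0.04 (SE, adjusted p = 1.7e-19) and 0.91 ± 0.04 (adjusted p = 2.8e-19) on the log2 scale. Uqcrc2 was at 174, 167 and 166 CPM on day 2 and 303, 306 and 304 CPM afterwards at 6 months, again without overlap, a rise of 0.85 ± 0.05. Uqcr10, a small subunit of complex III, rose by 0.81 at 6 months and by 1.00 at 20 months.

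In complex IV, 12 of 15 tested members rose at 6 months and 15 of 15 at 20 months. Cox7a1, the heart and muscle isoform, showed the largest fold change of the nuclear members at 6 months: 1.41, 1.14 and 1.27 CPM on day 2 against 3.74, 3.83 and 3.82 CPM, a log2 difference of 1.57 ± 0.22 (adjusted p = 2.6e-07). At 20 months it rose by 1.22 ± 0.21. The abundant Cox4i1 rose by 0.57 at 6 months and 0.78 at 20 months. Cox6a2 (1.80 ± 0.54, adjusted p = 0.0043) and Cox4i2 (1.62 ± 0.50, adjusted p = 0.0057) had the largest differences at 20 months, but Cox6a2 was at 0.719 CPM or below in those libraries and Cox4i2 reached only 1.2 CPM, so these folds rest on few counts.

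In complex I, 27 of 36 nuclear members rose at 6 months and 28 at 20 months. Ndufa1 was at 19.6, 19.4 and 21.8 CPM on day 2 and 37.5, 37.7 and 42.1 CPM in multinucleated cultures of 6 months, which do not overlap (0.95 ± 0.08). Ndufs1, the largest core subunit, was at 145, 141 and 143 CPM on day 2 and 229, 232 and 237 CPM later, a rise of 0.70 at 6 months and 0.50 at 20 months. Ndufa11 did not pass the test at either age (0.06 and 0.12). In ATP synthase, 14 of 17 rose at 6 months and 15 at 20 months, with Atp5a1 at 0.53 and 0.54, Atp5b at 0.48 and 0.50 and Atp5g3 at 0.61 and 0.60. The medians by complex at 6 months were 0.68 for complex II, 0.66 for III, 0.54 for IV, 0.43 for the nuclear part of I and 0.38 for V.

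mt-Cytb rose as well, from 3747, 3683 and 3776 CPM on day 2 to 6036, 6488 and 6409.8 CPM in multinucleated cultures of 6 months, a rise of 0.76 ± 0.05, and of 0.65 ± 0.05 at 20 months. All 7 abundant mitochondrial mRNAs rose at both ages, by 0.66 to 0.83 at 6 months and 0.40 to 0.65 at 20 months. Whether the stage difference itself differed between the ages was tested as an interaction, and the counts depend on the fit. With all libraries, 0 nuclear members were more positive at 20 months and 1 was less (Ndufs1, -0.21 ± 0.07, adjusted p = 0.032), beside 7.52% and 4.86% of all genes. At an unadjusted p under 0.05 there were 2 and 3, and with DESeq2 0 and 2. The call of Ndufs1 was lost without replicate 2 or 4 of 6-month 2-day, replicate 4 of 6-month multinucleated, replicate 1 of 20-month 2-day, or replicate 1 or 2 of 20-month multinucleated cultures, with adjusted p of 0.050 to 0.094, and without a filter (0.25). With only these 12 libraries in the fit, 5 nuclear members were more positive and 3 less. Of the mitochondrial mRNAs, mt-Nd1 (-0.23) and mt-Nd6 (-0.38) were less positive at 20 months. The call of mt-Nd1 (adjusted p = 0.044) was lost in 8 of the 12 fits that leave out a library (0.059 to 0.14), and that of mt-Nd6 in none of them. For mt-Nd6, however, reads of its own and of the opposite strand cannot be told apart, as given above.

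**Figure D3:**
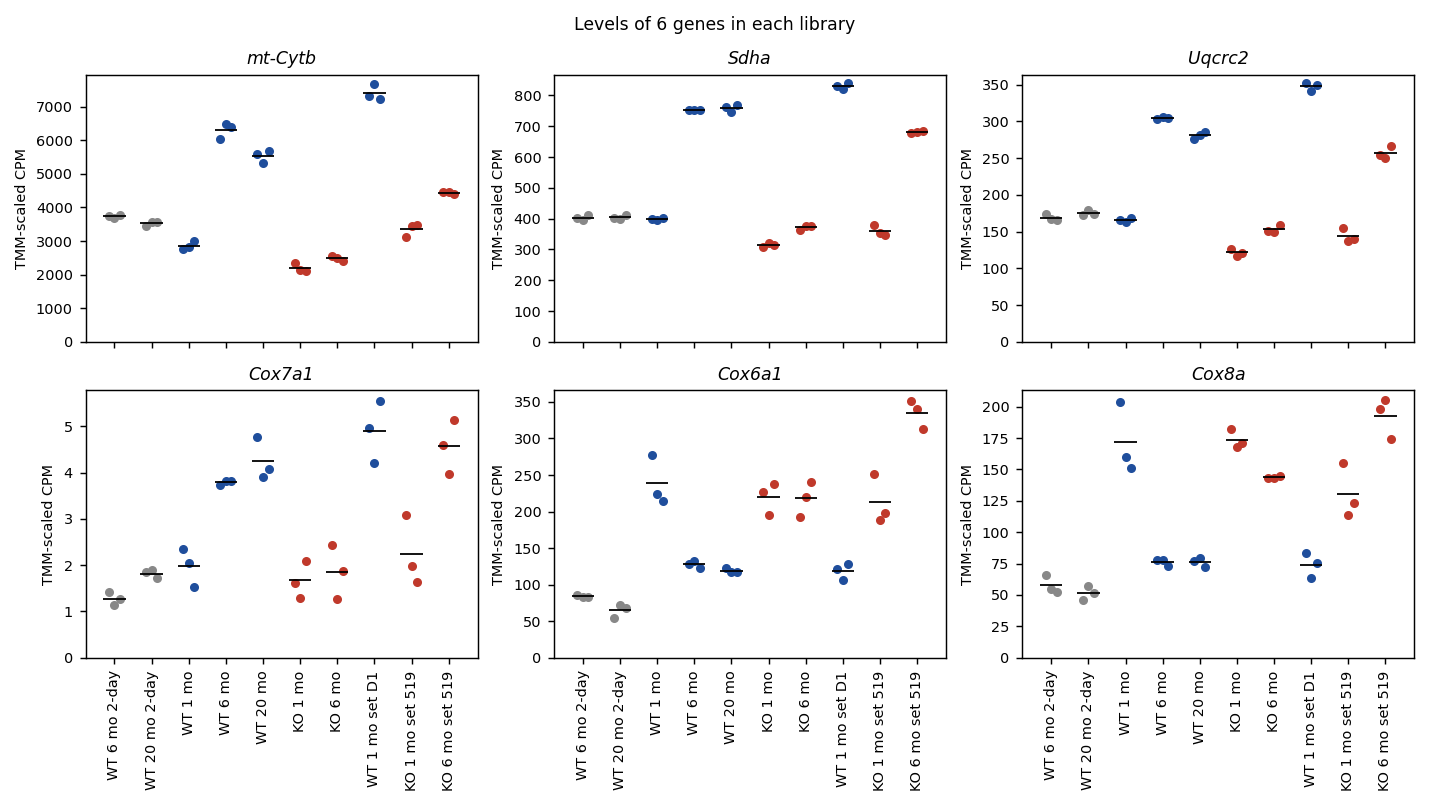
Level in each library (CPM scaled by TMM factors, vertical axis) of mt-Cytb, Sdha, Uqcrc2, Cox7a1, Cox6a1 and Cox8a by group (horizontal axis); points are libraries, short lines group means, grey WT 2-day, blue WT multinucleated, red KO multinucleated. Sdha and Uqcrc2 are high in 6- and 20-month multinucleated WT, set D1 and 6-month KO of set 519, whereas Cox6a1 and Cox8a are high in unprefixed 1-month WT and in all 4 KO groups.

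In unprefixed WT, the subunits divided between the ages. Between multinucleated cultures of 1 and 6 months, 30 nuclear members were higher at 6 months and 18 lower (37.5% and 22.5% of the 80, beside 31.2% and 32.5% of all genes), and their median difference was 0.07. The mitochondrial mRNAs did not divide in this way: 12 of 13 were higher at 6 months and 1, the uncertain mt-Nd3, was lower, with a median of 1.16. Scaling by library totals alone gave 39 nuclear members higher and 15 lower. Osteoclast markers were also higher at 6 months, 10 of 10, by a median of 3.20. Their sum in 1-month WT (2363 to 2491 CPM) lay below that of the 2-day cultures (3656 to 4823 CPM). The macrophage sum was lower, at 11027 to 11142 CPM against 27351 to 29519 CPM at 1 month (5 of 8 lower and 1 higher), and the stromal sum higher, at 1275 to 1648 CPM against 483 to 521 CPM (6 of 7 higher). Set D1, the other 1-month WT group, differs also in sex and was not tested against 6-month WT. Its mitochondrial share was 5.83% against 4.05% at 6 months, and its nuclear share 1.14% against 1.32%. By group mean, Sdha was at 831 and 752 CPM, mt-Cytb at 7406 and 6311, and Cox8a at 74.2 and 75.9. The part of age and of marker levels in the division was not tested.

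Those higher at 6 months included core subunits of several complexes. Sdha was at 400.1, 395 and 402 CPM at 1 month and 751, 752 and 754 CPM at 6 months, with no overlap (0.91 ± 0.04, adjusted p = 7.7e-20). Ndufs1 was at 120.0, 119 and 122 CPM at 1 month against 229, 232 and 237 CPM (0.95 ± 0.05), and Uqcrc2 at 166, 163 and 168 CPM against 303, 306 and 304 CPM (0.88 ± 0.05). Both had their 6-month libraries well above those of 1 month. mt-Cytb was at 2766, 2824 and 2991 CPM at 1 month and 6036, 6488 and 6409.8 CPM at 6 months (1.14 ± 0.05, adjusted p = 2.8e-20). mt-Nd5, a proton-pumping subunit of complex I, gave the largest difference of the abundant mitochondrial mRNAs, 1.71. Cox7a1 was 0.95 ± 0.20 higher.

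Those lower at 6 months included small subunits of complexes I, IV and V. Cox8a, a small subunit of complex IV, was at 204, 160.2 and 151 CPM at 1 month and 77.5, 77.5 and 72.7 CPM at 6 months, with no overlap (-1.18 ± 0.10, adjusted p = 5.7e-12). Cox6a1 was at 277, 224 and 215 CPM at 1 month and 128, 133 and 123 CPM at 6 months (-0.90 ± 0.10), also apart. Atp5e, the epsilon subunit of ATP synthase (-0.89 ± 0.11), and Ndufa11, of the membrane arm of complex I (-0.88 ± 0.11), followed. By complex, the nuclear members higher and lower at 6 months were 13 and 9 of complex I, 3 and 0 of complex II, 4 and 1 of complex III, 5 and 4 of complex IV, and 5 and 4 of complex V. Across the 80 nuclear members the difference had a Pearson r of -0.36 with the GC content of the transcript, which runs from 38.4% to 63.3%. With the log2 of transcript length r was 0.28. Such values are not particular to this comparison: r was 0.46 with length for 6 minus 1 month in unprefixed KO, and -0.41 with GC content for 20 minus 6 months in 2-day WT. These are descriptions across genes, which share libraries and are not replicates.

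Between 6 and 20 months in WT multinucleated cultures, the count of nuclear members depended on the fit. With all libraries none passed edgeR's test in either direction, where 7.39% of all genes were higher and 6.90% lower. At an unadjusted p under 0.05, 1 was higher and 9 were lower, and DESeq2 called 0 higher and 1 lower. With only these 6 libraries in the fit 16 were lower and 0 higher, and without a filter on low counts 4 were lower. The median of nuclear members was -0.06. The abundant mitochondrial mRNAs were slightly lower at 20 months in 5 of 7 cases: mt-Nd4 by -0.26, mt-Nd2 by -0.25, mt-Nd1 and mt-Nd6 by -0.22 each, and mt-Cytb by -0.19 ± 0.05 (adjusted p = 0.0051). For mt-Cytb the libraries were at 5581, 5338 and 5680.3 CPM at 20 months, all below those of 6 months. In 2-day cultures, 7 nuclear members were lower at 20 than at 6 months and 0 higher, beside 11.3% and 7.48% of all genes. They were Cox6a1 (-0.38 ± 0.11, adjusted p = 0.010), Uqcr11, Ndufs7, Ndufb10, Ndufb7, Ndufa7 and Uqcr10. This count rests on single libraries: of the 20-month cultures, it was 1 without replicate 1, 11 without replicate 2 and 3 without replicate 3, and of the 6-month cultures 3 without replicate 2 and 4 without replicate 4. It was 16 with only these 6 libraries in the fit.

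Loss of Terc was compared at 1 and at 6 months in cultures with unprefixed titles labelled as multinucleated. Osteoclast markers summed to 673 to 736 CPM in 1-month KO, 2363 to 2491 in 1-month WT and 2471 to 2768 in 6-month KO. These sums lay below those of the 2-day cultures (3656 to 4823 CPM), and that of 6-month WT above them (20749 to 22397 CPM). Genotype therefore cannot be told apart from marker level in these comparisons. At 1 month, 37 of 80 nuclear members were lower in KO and 1 was higher, where 20.8% of all genes were lower and 20.7% higher, with a median of -0.21 (all genes -0.00). By complex, 14 of 36 were lower in complex I, 3 of 4 in II, 6 of 8 in III, 4 of 15 in IV and 10 of 17 in V. The 1 higher member became 0 without replicate 1 of KO, 6 without replicate 2 of KO and 5 without replicate 1 of WT. The count of lower members was 24 without replicate 1 of WT, whose values for many members lie above the other WT libraries, 19 with only these 6 libraries in the fit, and 52 with scaling by library totals alone. All 10 osteoclast markers were lower in KO at 1 month, by a median of -2.16, and all 8 macrophage markers were higher, by 0.69.

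Ndufs8, an iron-sulfur subunit of complex I, had the largest fall. It was at 67.9, 58.3 and 59.0 CPM in WT and 42.2, 35.6 and 42.0 CPM in KO, with no overlap (-0.62 ± 0.09, adjusted p = 7.7e-07). Atp5g3, of the c-ring, was at 242, 203 and 202 CPM in WT and 163, 142 and 149 CPM in KO (-0.51 ± 0.06, adjusted p = 6.1e-08), likewise apart. Atp5o, in the stalk of ATP synthase, was lower by 0.46 ± 0.09 on the log2 scale, with the overlap with Gm15976 noted above.

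Other falls at 1 month were spread over complexes II and III. Uqcrc2 was at 166, 163 and 168 CPM in WT and 127, 117 and 121 CPM in KO (-0.44 ± 0.05), and Sdha at 400.1, 395 and 402 CPM against 307, 321 and 315 CPM (-0.35 ± 0.04). In both cases every KO library lay below every WT library. The member that was higher was Ndufa7, a supernumerary subunit of complex I (0.22, adjusted p = 0.0084). Its adjusted p was 0.072 without replicate 1 of KO, 0.059 with only these 6 libraries in the fit and 0.085 with scaling by library totals alone. Of the mitochondrial mRNAs, 5 were lower (3 without replicate 4 of KO) and mt-Co1 was higher: mt-Co1 was at 11929.6, 11459 and 11114 CPM in KO and 9953, 9866 and 9851 CPM in WT (0.22 ± 0.04), while mt-Cytb was at 2361, 2133 and 2105 CPM against 2766, 2824 and 2991 CPM (-0.38 ± 0.05).

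At 6 months the difference was larger. In KO, 49 nuclear members were lower and 10 higher, where 29.5% of all genes were lower and 30.5% higher, and the median was -0.36 (all genes -0.02). Of the mitochondrial mRNAs, 12 of 13 were lower, with a median of -1.40, and the uncertain mt-Nd3 was higher. By complex, the nuclear members lower and higher were 19 and 4 of complex I, 4 and 0 of II, 6 and 0 of III, 9 and 3 of IV, and 11 and 3 of V. All 10 osteoclast markers were lower in KO here too, by a median of -2.86. The macrophage sum was 26241 to 26842 CPM in KO against 11027 to 11142 CPM in WT, with 7 of 8 markers higher and 1 lower, and 5 of 7 stromal markers were lower. The libraries of 6-month WT are also those of the age and stage comparisons above, so the values of those comparisons are not independent of these.

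mt-Cytb was at 2546, 2501 and 2411 CPM in 6-month KO, all below the 6036 CPM of the lowest WT library, and mt-Co1 was at 9069, 9159 and 9076 CPM against 15256, 15970.3 and 15636 CPM. The log2 difference of mt-Co1 was -0.78 ± 0.04 (adjusted p = 2.6e-18). The 7 abundant mitochondrial mRNAs lay between -1.69 (mt-Nd5) and -0.78 (mt-Co1). Of the nuclear members, Uqcrc2 was at 151, 149 and 159 CPM in KO against 303, 306 and 304 CPM (-0.99 ± 0.05, adjusted p = 5.5e-19). Ndufs1 was at 117, 115 and 116 CPM against 229, 232 and 237 CPM (-1.0 ± 0.05). Sdhb, the iron-sulfur subunit of complex II, was at 127, 127 and 138 CPM against 218, 218 and 219 CPM. None of these overlapped.

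Among the isoforms of complex IV, Cox7a1 was at 2.44, 1.26 and 1.88 CPM in KO and 3.74, 3.83 and 3.82 CPM in WT (-1.03 ± 0.20, adjusted p = 3.7e-05). Cox4i2 had the largest log2 difference, -2.02 ± 0.61 (adjusted p = 0.0039), but at 0.0876 to 0.184 CPM in KO and 0.367 to 1.11 CPM in WT. Its adjusted p was 0.076 without replicate 2 of WT.

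The 10 nuclear members higher in KO at 6 months were Cox8a, Cox6a1, Cox5a, Ndufa11, Ndufs7, Ndufa2, Ndufa7, Atp5e, Atp5d and Atp5g2. Cox8a was at 143, 143 and 145 CPM in KO and 77.5, 77.5 and 72.7 CPM in WT, without overlap (0.92 ± 0.10, adjusted p = 1.9e-09). Cox6a1 was at 193, 220.3 and 241 CPM in KO and 128, 133 and 123 CPM in WT (0.77 ± 0.10). Ndufa11 was at 41.5, 46.3 and 48.5 CPM in KO and 27.3, 25.5 and 28.8 CPM in WT (0.74 ± 0.11), so the libraries of all 3 stood apart. The same 6-month WT libraries lay below 1-month WT for these 3 genes, as given above.

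Comparisons of KO with WT at the 2 ages share no library. In both, 32 nuclear members were lower in KO (86.5% of the 37 at 1 month and 65.3% of the 49 at 6 months), and Ndufa7 was higher in both, with the limits given above. How many of all genes were lower in both was not counted. Tested as an interaction, 27 nuclear members had a more negative KO difference at 6 months and 12 a less negative or more positive one, beside 21.6% and 27.1% of all genes. Leaving out single libraries moved the first count between 16 (without replicate 1 of 1-month KO, or replicate 4 of 1-month WT; 17 without replicate 1 of 6-month KO) and 39 (without replicate 1 of 1-month WT) and the second between 8 and 15. Of the mitochondrial mRNAs, 12 of 13 were more negative at 6 months, mt-Cytb by -0.97 ± 0.07. Sdha differed by -0.67 ± 0.06 (adjusted p = 8.3e-12) and Cox6a1 by 0.89 ± 0.14 (adjusted p = 2.5e-06). By complex, 12 nuclear members of complex I were more negative and 5 more positive, with 3 and 0 of II, 2 and 0 of III, 7 and 4 of IV, and 3 and 3 of V.

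**Figure D4:**
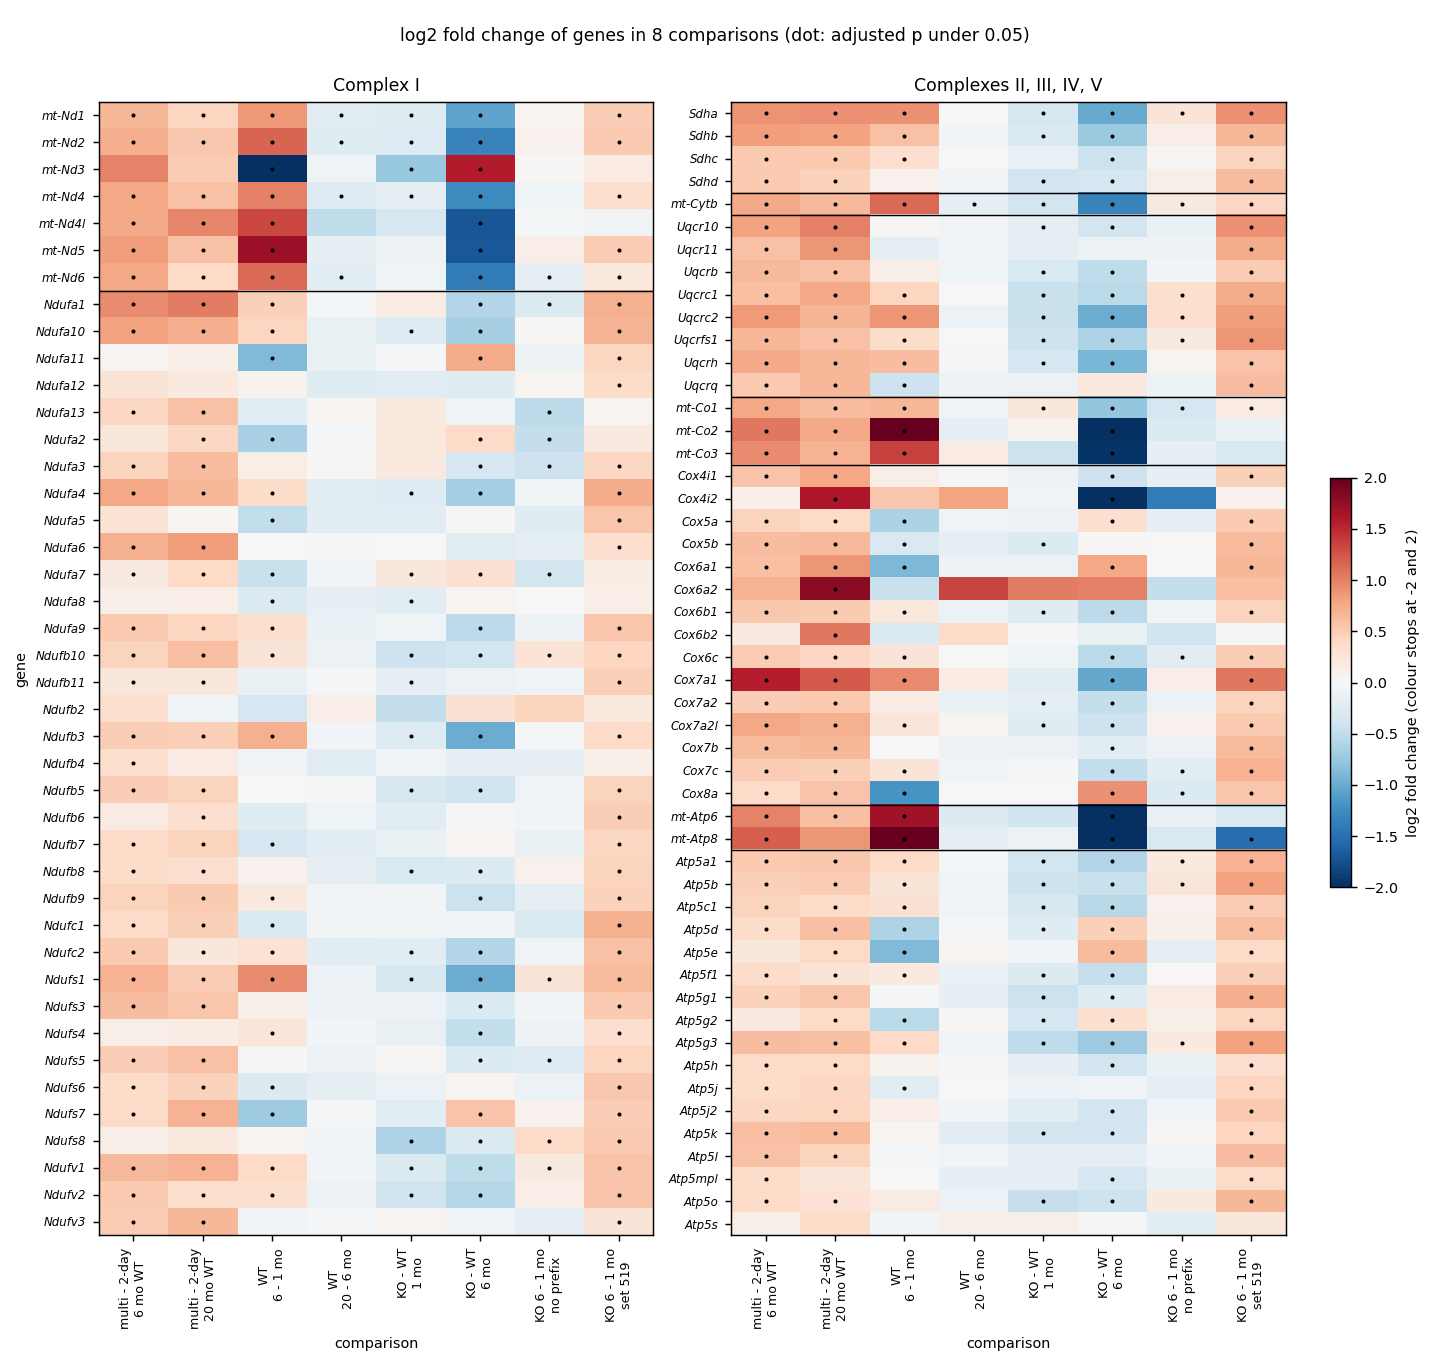
Log2 difference of 92 of the 93 tested members (vertical axis, by complex and genome) in 8 comparisons (horizontal axis); red is higher and blue lower in the first named group, colours stop at 2 in either direction, and a dot marks adjusted p under 0.05. Both stage columns have no nuclear member that fell, whereas the WT age and 6-month KO columns hold members of either direction.

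Age in KO gave different results in the 2 title sets, which share no library. In unprefixed KO, 12 nuclear members were higher and 9 lower at 6 than at 1 month (15% and 11.2% of the 80, beside 19.7% and 17.8% of all genes), with a median of -0.06. In set 519, 70 of 80 were higher and 0 lower, where 19.2% of all genes were higher and 13.2% lower, with a median of 0.52. All 12 members higher in the unprefixed set were among the 70 (17.1% of them). With 70 of 80 called, most of any 12 members would be among them, so this overlap says little. The unprefixed counts moved with single libraries: 18 higher and 5 lower without replicate 1 of 1-month KO, 8 and 20 without its replicate 2, 14 and 5 without replicate 1 and 11 and 5 without replicate 2 of 6-month KO, and 22 and 4 with scaling by library totals alone. Osteoclast markers were higher at 6 months in both sets, 10 of 10, by medians of 2.38 and 1.91. In unprefixed KO their sums at both ages lay below those of the 2-day cultures, whereas in set 519 they lay above.

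Sdha in set 519 was at 378, 354 and 346 CPM at 1 month and 678, 679.8 and 685 CPM at 6 months, with no overlap (0.92 ± 0.04, adjusted p = 1.2e-18). In unprefixed KO it was at 307, 321 and 315 CPM at 1 month and 364, 377 and 377 CPM at 6 months, also without overlap but closer (0.25 ± 0.04, adjusted p = 7.4e-06). The difference between these differences was 0.68 ± 0.06 (adjusted p = 2.0e-10). Uqcrc2 was higher at 6 months by 0.84 ± 0.05 in set 519 and by 0.33 ± 0.05 in unprefixed KO. Uqcr10 in set 519 was at 110.0, 95.8 and 80.9 CPM at 1 month and 181, 178 and 188 CPM at 6 months (0.92 ± 0.09), and in unprefixed KO at 114, 92.9 and 106 CPM and 87.3, 96.3 and 101 CPM, which overlap.

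The largest rises with age in unprefixed KO were those of Ndufs8 (0.39 ± 0.09, adjusted p = 6.9e-04), Uqcrc2 and Uqcrc1 (0.32). Complex IV gave 0 rises there and 3 falls. Ndufa13 had the largest fall: it was at 77.5, 60.3 and 71.2 CPM at 1 month and 43.1, 48.6 and 53.9 CPM at 6 months, without overlap (-0.52 ± 0.11, adjusted p = 2.6e-04). In set 519 it was at 74.6, 66.6 and 71.5 CPM and 66.2, 67.8 and 84.5 CPM, which overlap. Ndufa2 (-0.47) and Ndufa3 (-0.42) also fell in unprefixed KO.

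By complex, the rises in set 519 covered 30 of 36 nuclear members of complex I, 4 of 4 of II, 8 of 8 of III, 12 of 15 of IV and 16 of 17 of V, with medians of 0.45, 0.64, 0.74, 0.53 and 0.50. Cox7a1 was again among the largest (1.06 ± 0.26, adjusted p = 0.0013). The 7 abundant mitochondrial mRNAs all rose there, by 0.16 to 0.52. In unprefixed KO, mt-Cytb rose by 0.18 ± 0.05, while mt-Co1 fell by 0.34 on the log2 scale and mt-Nd6 by 0.20. Tested as an interaction of title set and age, 64 nuclear members had a more positive age difference in set 519 and 0 a more negative one, beside 9.09% and 5.79% of all genes. This interaction was added after the data were seen, and scaling by library totals alone gave 50 and 0.

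**Figure D5:**
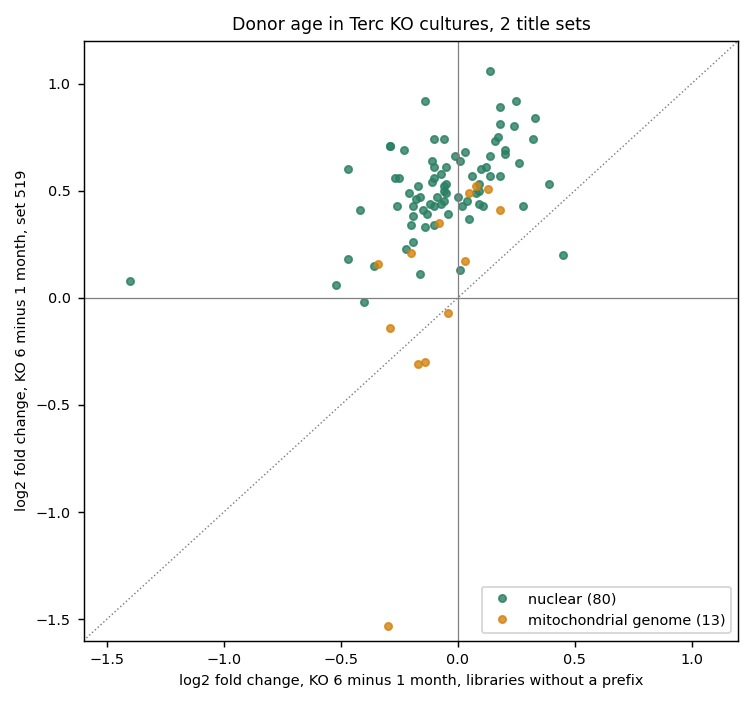
Log2 difference between 6 and 1 month in KO cultures with unprefixed titles (horizontal axis) and in set 519 (vertical axis) for the 80 nuclear (green) and 13 mitochondrial (orange) members; the dotted line marks equal values. Nuclear members lie mostly above the line, with medians of -0.06 and 0.52.

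Set 519 could also be set beside the unprefixed cultures directly, with title set and whatever it stands for not separable. At 1 month, 5 nuclear members were higher and 26 lower in set 519 than in unprefixed KO (21.9% and 28.2% of all genes), and all 7 abundant mitochondrial mRNAs were higher. The 26 became 13 with scaling by library totals alone, 12 with only these 6 libraries in the fit, 16 without replicate 1 of unprefixed KO and 17 without replicate 3 of set 519. At 6 months, 62 were higher and 0 lower (22.6% and 26.5% of all genes), with a median of 0.40, and again all 7 abundant mitochondrial mRNAs were higher, by a median of 0.82. Osteoclast markers were higher in set 519 at both ages, 10 of 10. Against WT of 1 month, 0 nuclear members were higher in set 519 KO and 57 lower (27.2% and 29.8% of all genes), with a median of -0.36. Osteoclast markers there went the other way, 7 of 10 higher and 1 lower in set 519, at 7037 to 8251 CPM against 2363 to 2491 CPM. Against WT of 6 months, 26 were higher and 14 lower (25.7% and 25.9% of all genes), with a median of 0.09. In that comparison 5 osteoclast markers were higher and 2 lower, 5 of 8 macrophage markers higher, and 6 of 7 stromal markers lower. With scaling by library totals alone these were 20 and 25, and without replicate 2 of 6-month set 519 they were 25 and 9. With the same 6-month WT libraries on the other side, the median KO difference of the nuclear members was thus -0.36 with unprefixed KO and 0.09 with set 519.

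Cox6a1 and Cox8a were higher than in 6-month WT with either KO set: in 6-month KO of set 519 Cox6a1 was at 351, 341 and 313 CPM (1.39 ± 0.10 above WT) and Cox8a at 198, 205 and 174 CPM (1.34 ± 0.11 above WT). Both lay above every library of 6-month WT. Sdha was lower than in WT in set 519 by 0.15 at 1 month and 0.14 at 6 months on the log2 scale. The 7 abundant mitochondrial mRNAs were lower than in WT in set 519 too at 6 months, by 0.51 in the median on the log2 scale, with mt-Cytb at 4448, 4470.4 and 4400.2 CPM, between unprefixed KO and WT. At 1 month, 10 of 13 mitochondrial mRNAs were instead higher in set 519 than in WT and 0 lower, beside 27.2% and 29.8% of all genes. There mt-Cytb was at 3126, 3457 and 3465 CPM in set 519, against 2766, 2824 and 2991 CPM in WT.

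Set D1 was the group with the highest mitochondrial transcripts. All 13 mitochondrial mRNAs had their highest group mean there, and all 13 were higher than in the unprefixed 1-month WT, by a median of 1.65. mt-Co1 was at 30878, 31877 and 30538 CPM in set D1 and 9953, 9866 and 9851 CPM in the unprefixed libraries, far apart (1.65 ± 0.04). Nuclear members did not follow as a group: 23 were higher and 34 lower, beside 37.5% and 36.9% of all genes, with a median of -0.11. Sdha was at 830.4, 822 and 841 CPM (1.06 ± 0.04 above the unprefixed WT) and Cox8a at 83.4, 63.7 and 75.6 CPM (-1.21). The unprefixed 1-month libraries are those of the WT age comparison above. Higher and lower members by complex were 8 and 17 of I, 3 and 0 of II, 4 and 3 of III, 4 and 5 of IV, and 4 and 9 of V.

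Over all 10 groups, the nuclear members did not share a single order. Of the 80, 34 had their highest mean in 6-month KO of set 519, 23 in 6-month multinucleated WT and 13 in set D1. The lowest mean fell in 20-month 2-day cultures for 39, in 1-month KO of set 519 for 21 and in unprefixed 1-month KO for 9. Such ranks were not counted over all genes, and they also order groups with nearly equal means. The 6-month 2-day cultures were lowest for 6, yet only 7 nuclear members were called between the 2-day groups. Of the 13 mitochondrial mRNAs, 8 were lowest in unprefixed 6-month KO and 4 in unprefixed 1-month KO. For mt-Cytb, the order of group means ran from unprefixed 1-month KO and unprefixed 6-month KO through 1-month WT, 1-month KO of set 519, the 2-day cultures and 6-month KO of set 519 to multinucleated WT of 20 and 6 months and set D1. Its 1-month WT libraries (2766 to 2991 CPM) stood above those of 6-month unprefixed KO (2411 to 2546), and libraries of 20-month 2-day cultures (3454 to 3569.9) overlapped with 1-month KO of set 519 (3126 to 3465).

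The promoters of the nuclear members were examined for sequence motifs known from mitochondrial gene regulation, since the members moved together with stage. RefSeq promoters (GRCm38.p6, 250 bases before to 50 after the start) were matched by symbol for 66 of the 83 nuclear members. The NRF1-type motif GCGCATGCG, searched on both strands, was present in 8 of 66 (12.1%), against 1.95% of all 27025 genes with a promoter. The ETS motif ACCGGAAG, bound by the GABP family, was in 6 (9.09%, against 2.60%), the ERR-type TCAAGGTCA, of the estrogen-related receptors, in 2 (3.03%, against 0.466%), and the YY1-type AAGATGGC in 9 (13.6%, against 3.19%). A match is a run of letters in this window and no evidence of binding.

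Promoters of 4 members described above show these motifs, in capitals, each 5′ to 3′ on the gene's strand: Cox6a1 (chr5:115348909-115349208, minus) and Ndufa11 (chr17:56717512-56717811, plus), both lower in 6-month than in unprefixed 1-month WT and with an NRF1-type palindrome that matches on both strands, and Atp5g3 (chr2:73911277-73911576, minus, ERR-type) and Sdhb (chr4:140961021-140961320, plus, ETS), both lower in unprefixed KO at both ages.
Cox6a1: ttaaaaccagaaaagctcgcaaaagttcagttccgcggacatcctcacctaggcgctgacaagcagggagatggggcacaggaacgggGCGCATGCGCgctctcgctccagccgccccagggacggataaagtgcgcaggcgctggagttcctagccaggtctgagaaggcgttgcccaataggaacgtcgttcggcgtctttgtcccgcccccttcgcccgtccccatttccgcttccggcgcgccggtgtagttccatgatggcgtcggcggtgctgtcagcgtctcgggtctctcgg
Ndufa11: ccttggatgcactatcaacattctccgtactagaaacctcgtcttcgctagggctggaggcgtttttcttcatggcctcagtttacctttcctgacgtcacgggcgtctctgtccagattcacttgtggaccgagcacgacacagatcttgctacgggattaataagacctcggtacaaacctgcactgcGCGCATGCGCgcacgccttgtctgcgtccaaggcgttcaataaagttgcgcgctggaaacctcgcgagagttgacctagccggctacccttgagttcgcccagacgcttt
Atp5g3: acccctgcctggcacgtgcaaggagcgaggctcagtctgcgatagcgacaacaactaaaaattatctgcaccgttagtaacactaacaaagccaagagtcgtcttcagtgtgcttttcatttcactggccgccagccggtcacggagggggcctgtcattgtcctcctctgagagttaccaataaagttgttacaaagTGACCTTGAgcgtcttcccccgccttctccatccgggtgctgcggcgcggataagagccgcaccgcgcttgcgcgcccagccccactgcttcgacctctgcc
Sdhb: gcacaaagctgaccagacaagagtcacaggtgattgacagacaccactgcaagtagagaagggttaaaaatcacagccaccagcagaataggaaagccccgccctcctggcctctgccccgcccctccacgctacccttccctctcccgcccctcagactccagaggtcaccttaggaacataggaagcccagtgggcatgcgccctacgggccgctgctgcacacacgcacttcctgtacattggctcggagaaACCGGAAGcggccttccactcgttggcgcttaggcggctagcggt
Members with the NRF1-type motif were Atp5g2, Atp5k, Atp5l, Cox6a1, Ndufa11, Ndufa8, Uqcr11 and Uqcrc1, those with the ETS motif Atp5e, Ndufb6, Ndufs3, Ndufs8, Sdhb and Sdhd, and those with the ERR-type motif Atp5g3 and Sdhd. Members of both directions in the WT age comparison are found with the NRF1-type motif: Uqcrc1 was 0.43 higher at 6 months and Ndufa11 0.88 lower.

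Other genes of mitochondrial metabolism were read from lists. Their counts are to be read against all genes tested, of which 23.4% rose and 27.4% fell with stage at 6 months, and 25.4% and 26.9% at 20 months. In KO 20.7% of all genes were higher and 20.8% lower at 1 month, and 30.5% and 29.5% at 6 months. KO counts and differences of these lists and of the regulators are for unprefixed cultures, unless set 519 is named. In 6-month against 1-month multinucleated WT 31.2% were higher and 32.5% lower. Of 16 genes of the TCA cycle, 16 rose with stage at 6 months and 13 at 20 months, 16 were higher in 6-month than 1-month multinucleated WT, and 16 were lower in KO at each age, with medians of -0.40 at 1 month and -0.72 at 6 months. None moved the other way in these comparisons. Pdhb, of pyruvate dehydrogenase, was lower in KO by 0.55 ± 0.06 at 1 month and by 1.33 ± 0.06 at 6 months on the log2 scale. Cs, citrate synthase, rose with stage by 0.57 ± 0.05 and 0.52 ± 0.05. The same 16 genes were all higher at 6 months in KO of set 519 (19.2% of all genes), and 13 in unprefixed KO (19.7%).

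Among the electron carriers (17 genes), 8 rose and 3 fell with stage at 6 months, and 10 were lower and 3 higher in KO at that age. These are 47.1% and 17.6% with stage and 58.8% and 17.6% in KO. Coq8a, a kinase-like protein of coenzyme Q synthesis, gave the largest differences: it rose with stage by 2.15 ± 0.08 and 2.38 ± 0.08, and was lower in KO by 1.19 ± 0.09 at 1 month and 2.22 ± 0.08 at 6 months, all on the log2 scale. Cycs, cytochrome c, rose with stage by 0.29 ± 0.07 at 6 months and was lower in KO by 0.45 and 0.60 at the 2 ages.

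The mitochondrial ribosome, which translates the 13 mRNAs, had members of both directions. Of 77 tested genes, 14 rose and 6 fell with stage at 6 months and 11 rose and 22 fell at 20 months (18.2% and 7.79%, then 14.3% and 28.6%), of which only the 22 reach the share of all genes. In 6-month against 1-month multinucleated WT, 8 were higher and 44 lower (10.4% and 57.1%). In KO, 46 were lower and 0 higher at 1 month (59.7% and 0%), and 16 lower and 21 higher at 6 months (20.8% and 27.3%), shares not above those of all genes, with Mrps35 lower at both ages (-0.84 and -1.04) and Mrpl14 higher at 6 months (1.09). For the 20 genes of import and the outer membrane, 6 rose and 4 fell with stage at 6 months (30% and 20%), near the shares of all genes. In KO 17 were lower at 1 month (85%) and 9 at 6 months (45%).

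Assembly factors help to build the complexes without being part of them. Of 15 for complex I, 7 rose and 1 fell with stage at 6 months, and 4 rose and 2 fell at 20 months. The shares that rose were 46.7% and 26.7%, the latter near the 25.4% of all genes. Of 18 for complex IV, 7 rose and 1 fell at 6 months, and 6 rose and 1 fell at 20 months (38.9% and 33.3% rose). In KO, 8 of the 15 were lower at 1 month (53.3%), among them Ecsit (-0.74), and 6 lower and 3 higher at 6 months (40% and 20%). Among 20 genes that maintain and express mitochondrial DNA, 1 rose and 2 fell with stage at 6 months (5% and 10%), below the shares of all genes. In KO 13 were lower at 1 month (65%), and 9 lower and 4 higher at 6 months (45% and 20%). Tfam, which packages mitochondrial DNA and starts its transcription, was -0.15 with stage at 6 months (adjusted p = 0.078) and fell by 0.39 at 20 months. It was lower in KO by 0.39 and 0.25 on the log2 scale. Polrmt, the mitochondrial RNA polymerase, was lower in KO at 1 month (-0.23) and higher at 6 months (0.47), and Lrpprc, which stabilises mitochondrial mRNAs, was lower at both (-0.45 and -0.69).

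Ppargc1b, 1 of the 10 transcriptional regulators tested, had the same direction as the subunits with stage and in unprefixed KO. Its group means were 4.95 CPM in unprefixed 1-month KO, 14.6 in 1-month KO of set 519, 15.1 in 1-month WT, 17.7 in unprefixed 6-month KO, 23.2 and 25.1 in 2-day cultures of 6 and 20 months, 38.5 in set D1, 44.9 in 6-month KO of set 519, and 52.1 and 54.6 in multinucleated WT of 20 and 6 months. It rose with stage by 1.23 ± 0.10 (adjusted p = 1.3e-12) and 1.05 ± 0.10 (adjusted p = 7.0e-11), and was lower in unprefixed KO by 1.62 ± 0.13 and 1.63 ± 0.10 on the log2 scale at 1 and 6 months. In KO of set 519 its means were closer to those of WT: 14.6 against 15.1 CPM at 1 month, and 44.9 against 54.6 CPM at 6 months. In unprefixed multinucleated WT its mean went from 15.1 CPM at 1 month to 54.6 CPM at 6 months. There 30 of 80 nuclear members were higher at 6 months and 18 lower, beside 31.2% and 32.5% of all genes. The unprefixed KO difference of Ppargc1b did not pass the test of a difference between the ages (-0.01 ± 0.17, adjusted p = 0.97). In unprefixed KO it rose with age by 1.83 ± 0.13, and in set 519 by 1.59 ± 0.13, while 12 and 70 nuclear members rose in these sets. Esrra, the receptor it works with, rose with stage by 0.48 ± 0.07 and 0.62 ± 0.08. Gabpa fell with stage by 0.14 and 0.27, and Nrf1 was at -0.04 at both ages and did not pass the test. KO values of Esrra, Gabpa and Nrf1 are not given here, so Ppargc1b is not set apart from them.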

How the data were processed

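Counts per gene were deposited by the authors, 1 table per library. Per the file headers they were made with featureCounts 1.6.0 in paired-end mode over exons of the Ensembl 88 annotation (GRCm38), from sorted STAR alignments, with no strand or multimapping option; the submitters' processing notes name mm10 and also HTSeq, and versions of STAR and HTSeq are not given in the sources used here. Per the labels' protocols, RNA was selected with oligo(dT), so mitochondrial mRNAs were counted as far as they carry poly(A).

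Symbols came from GENCODE M21 (99.4% of IDs). From the deposited counts, edgeR 4.0.16 (R 4.3.3; TMM, filterByExpr, 1 coefficient per group, 30 libraries) tested 15310 genes with the quasi-likelihood test and Benjamini-Hochberg adjustment, threshold 0.05. The common biological coefficient of variation was 0.061. Levels are CPM scaled by TMM, or RPKM over exon length, and sequences are from GENCODE M21 transcripts and RefSeq promoters (GRCm38.p6). The script was tested on simulated counts. Replicate libraries of a group differed by more than sampling noise (chi-square per degree of freedom 1.28 to 22.3). The labels do not say that replicates came from separate mice, so p-values measure the spread between these libraries, which may be technical.

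Named were the 13 mitochondrial mRNAs, a list of subunits with known roles, in each comparison the 3 nuclear members with the largest rise and fall past the threshold with libraries that do not overlap, and regulators and up to 2 genes per pathway list. Other members named for a motif, shared sequence or a short count were named after their values were seen. The values of 1 member are not reported here singly; it is in every count. Members and lists were chosen with earlier results of these data known. Alternatives were DESeq2 1.42.0, its size factors, library totals alone, TMM without the mitochondrial genome, no filter or at least 5 CPM in 3 libraries, unprefixed libraries only, only the groups compared, the replicate number as a block, and each replicate left out. Tables and figures used Python 3.11.15 and matplotlib 3.10.9.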

Additional observations from a re-analysis of the deposited data

Results flagged for a closer look

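Values are given for the subunits and regulators named by rule, not for every member. The KO difference in unprefixed multinucleated cultures differed between 1 and 6 months, by a test of the difference itself (edgeR, adjusted over all genes), for all 13 mitochondrial mRNAs. As log2 values of the 6-month minus the 1-month difference, the 7 abundant ones gave -0.81 (mt-Nd1), -1.07 (mt-Nd2), -1.0 (mt-Co1), -1.08 (mt-Nd4), -1.59 (mt-Nd5), -1.33 (mt-Nd6) and -0.97 (mt-Cytb). The 6 uncertain ones gave -2.54 (mt-Co2), -2.95 (mt-Atp8), -1.81 (mt-Atp6), -1.53 (mt-Co3), -1.38 (mt-Nd4l) and, in the other direction, 2.35 (mt-Nd3).

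The same test called 27 nuclear members more negative and 12 more positive, beside 21.6% and 27.1% of all genes. Leaving out single libraries moved these counts to between 16 and 39 and between 8 and 15. Set 519 was not in this test. In its KO cultures, 0 nuclear members were higher and 57 lower than in WT at 1 month, and 26 higher and 14 lower at 6 months. The called members among the named subunits follow. More negative at 6 months were Ndufs1 (-0.68), Ndufv1 (-0.22), Ndufa4 (-0.42), Sdha (-0.67), Sdhb (-0.45), Uqcrc2 (-0.55), Cox4i1 (-0.30), Cox4i2 (-1.94), Cox7a1 (-0.82), Cox7a2 (-0.27), Atp5a1 (-0.19) and Atp5g3 (-0.23). Of these, Cox4i1, Cox4i2 and Cox7a2 were near the threshold (adjusted p = 0.044, 0.046 and 0.047). Cox4i2 did not exceed 1.11 CPM in these libraries. More positive were Cox5a (0.46), Cox5b (0.32), Cox6a1 (0.89), Cox8a (0.91), Atp5g2 (0.65) and Atpif1 (0.69), the inhibitor of ATP synthase, which is no member by the symbol rule.

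Stage and age in WT interacted for mt-Nd1 (-0.23), mt-Nd6 (-0.38) and Ndufs1 (-0.21), where the rise from day 2 was smaller at 20 than at 6 months. As given above, the calls of mt-Nd1 (adjusted p = 0.044) and Ndufs1 (adjusted p = 0.032) were lost when some single libraries were left out. Counts of mt-Nd6 carry the limit of strand given above. Ndufs1 was the only nuclear member called, where 4.86% of all genes were less positive at 20 months.

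In KO, the difference between 6 and 1 month was more positive in set 519 than in unprefixed cultures. For mitochondrial mRNAs this was 0.44 (mt-Nd1), 0.44 (mt-Nd2), 0.50 (mt-Co1), 0.42 (mt-Nd4), 0.40 (mt-Nd6) and 0.23 (mt-Cytb). For complexes I to III it was 0.37 (Ndufs1), 0.39 (Ndufv1), 0.80 (Ndufa4), 0.68 (Sdha), 0.52 (Sdhb), 0.42 (Uqcrc1), 0.51 (Uqcrc2) and 0.72 (Uqcrfs1). For complexes IV and V it was 0.63 (Cox4i1), 0.69 (Cox5a), 0.64 (Cox5b), 0.67 (Cox6a1), 0.56 (Cox7a2), 0.44 (Cox7a2l), 0.83 (Cox8a), 0.49 (Atp5a1), 0.56 (Atp5b), 0.56 (Atp5g1) and 0.63 (Atp5g3).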

How the results depend on the processing

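Of 17248 values of named genes under alternatives, 16442 kept their direction and their side of the threshold, 591 lost significance, 215 gained it and 0 reversed. Counts of members past the threshold (of 93) moved by more than 1.5 times as follows. With only the groups compared in the fit, KO against WT at 1 month gave 24 (44 as reported), WT 20 against 6 months 23 multinucleated (5) and 19 on day 2 (7), set 519 against unprefixed KO at 1 month 27 (43), and stage by age 14 (3). Without a filter, WT 20 against 6 months gave 10 multinucleated and 18 on day 2. Stage by age gave 6 with library totals alone, 5 with DESeq2 and 5 without a filter. Leaving out 1 library gave 1 to 11 for day 2 and 1 to 4 for stage by age. Library totals alone moved the median of all genes by 0.12 (set 519 against unprefixed KO at 1 month), -0.11 (set 519 KO against WT at 6 months) and -0.15 (title set by age). With TMM-scaled totals the mitochondrial share was 2.04% in unprefixed 1-month KO and in 1-month WT, 2.33% and 2.36% in 2-day cultures of 6 and 20 months, 1.85% in unprefixed 6-month KO, 3.52% in 20-month multinucleated WT, 6.04% in set D1 and 3.12% in 6-month KO of set 519. With the replicate number as a block, 1091 of 1117 values kept their call, 20 lost and 6 gained it. Same-numbered libraries had correlations of -0.152 to 0.261, the highest for replicate 1 of 1-month KO and WT. Libraries of different number reached 0.197. With 3 libraries per group, such correlations cannot decide whether the numbers pair the libraries. The cause of these moves was not tested, beyond the fewer libraries or other genes in the fit. Low depth limits the precision of members with few counts, among them Cox4i2, Cox6a2 and Cox6b2.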

Other observations

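Genes of mitophagy, by which damaged mitochondria are removed, were not described above. Of 8 tested, 5 rose and 0 fell with stage at 6 months, and 6 rose and 0 fell at 20 months, beside 23.4% and 25.4% of all genes that rose, with Pink1, the kinase that marks damaged mitochondria, higher by 0.87 ± 0.10 and 1.53 ± 0.10 on the log2 scale. In unprefixed KO, 5 were higher and 1 lower at 1 month, and 2 higher and 3 lower at 6 months, beside 20.7% and 20.8% of all genes at 1 month and 30.5% and 29.5% at 6 months. Sqstm1, an adaptor protein, was higher in KO by 0.78 ± 0.06 at 1 month and 0.38 ± 0.06 at 6 months, while Bnip3, an outer-membrane receptor, was 0.03 ± 0.14 (adjusted p = 0.89) and -0.77 ± 0.13 (adjusted p = 9.2e-06). Tested as an interaction, 6 of the 8 had a more negative KO difference at 6 months and 1 a more positive one, beside 21.6% and 27.1% of all genes.

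Several members of the symbol families are pseudogenes in the annotation: 7 processed pseudogenes matched the symbol patterns and were left out because they are not protein-coding.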
